A study of Mus musculus with 26 samples.

Results

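Solute carriers are the membrane proteins that move nutrients, metabolites and inorganic ions across the plasma membrane and the membranes of organelles. The genes described here were chosen by name and by level: symbols beginning with Slc, a family number and a letter, without the mitochondrial Slc25 family, the zinc carriers of the Slc30 and Slc39 families and pseudogenes, with a normalized count of at least 10 in at least 2 of 26 libraries. Of 46517 symbols in the table, 302 matched the name, and 183 of these passed the level rule and are called carriers below. A further 81 were above 0 in some library but stayed under the rule, and 38 were at 0 in every library. The values at the edge were low on both sides, since the 9 carriers with exactly 2 libraries at 10 or more peaked between 10.4 (Slc28a3) and 26.1 (Slc40a1), and the 5 symbols left out with exactly 1 such library peaked between 10.9 (Slc38a3) and 16.8 (Slc1a2). Most carriers were well above the edge: 117 had at least 10 in all 26 libraries, and 101 had a mean of at least 100. Of the 183, 1 carrier reached 10 in the libraries of 1 group only.

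The study sorted thymocytes of mice with 1 transgenic, MHC class I-restricted T cell receptor per line. It asked how the self-reactivity of the receptor affects positive selection toward the CD8 lineage. TG6 mice (genotype TG6tg H2b/d, from the cross C57/BL6 x B6.C-H2d/bByJ) have a receptor of low self-reactivity and no Rag deletion in the labels, F5 mice (F5tg Rag1KO, C57/BL6) a receptor of intermediate self-reactivity, and OT-1 mice (OT-1tg Rag2KO, C57/BL6) a receptor of high self-reactivity. Against TG6, self-reactivity cannot be told apart from strain, MHC type and the Rag deletion, while F5 and OT-1 share the strain in the labels and differ in the deleted Rag gene. Each level of self-reactivity is represented by 1 receptor. From each line, thymocytes in early positive selection were sorted as CD4+CD8+CXCR4+CCR7-, those in late positive selection as CD4+CD8+CXCR4-CCR7+, and mature CD8SP cells as CD4-CD8+CXCR4-CCR7+, with 3 libraries per group and 2 for TG6 late. Ages of the mice are not given in the labels.

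Facilitative carriers let a substrate run down its gradient, whereas coupled carriers and exchangers use the gradient of sodium, protons or a second solute to drive it. In T cells, glucose carriers of the Slc2 family, the lactate carriers of the Slc16 family and the amino acid carriers Slc1a5 and Slc7a5 are known to increase on activation and to feed growth, and Slc7a5 reaches the membrane only together with its heavy chain Slc3a2 (CD98). Cation-chloride cotransporters of the Slc12 family and sodium-proton exchangers of the Slc9 family set cell volume and pH. Developing thymocytes at the double-positive stage are small, resting cells that wait for a selecting signal, and several carriers of this family are better known from kidney, gut and liver than from thymus.

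Library totals of normalized counts ran from 16134786 to 18944173. Of the genes used in the sort, Ccr7 was low at early and Cd4 low at mature CD8SP, with mean Ccr7 between 147 and 779 at early and between 6865 and 12058 at mature CD8SP, and with mean Cd4 no higher than 259 at mature CD8SP. Cxcr4 had means of 5161, 3505 and 2022 in TG6, F5 and OT-1 at early, 1079, 1701 and 846 at late and 1928, 2674 and 2159.8 at mature CD8SP, so that its RNA was not low in the mature gate, which takes CXCR4- cells. These genes differed between lines within 1 gate: of the 8 thymocyte and sort genes, 2 were called higher (Ccr7, Cd5) and 5 lower (Cd8a, Cd8b1, Cd4, Cxcr4, Rag1) in OT-1 against TG6 at early, with summed levels of 54205 to 64102 against 144003 to 155604, and their part in the early differences was not tested. Among markers of other cells, Elane and Ncr1 were at 0 everywhere, Pf4 stayed at or under 1.56 and Foxn1 at or under 0.98, but other genes of their lists were detected. Thymic epithelium markers, 4 of 7 past the level rule, summed to between 94.1 and 191.7 over all libraries. Platelet markers, 1 of 5 past it, summed to between 17.6 and 102.2. NK cell markers, 0 of 4 past it, summed to 9.18 to 26.2 in TG6 mature CD8SP and to at most 7.88 in the other groups. Summed over a list, B cell markers ran from 2869 to 10419 over all libraries, and at late they were 2869 to 2892 in TG6, 3405 to 4919 in F5 and 5433 to 7444 in OT-1. In TG6 they were 7125 to 8639 at early and 6401 to 7118 at mature CD8SP. Erythroid markers ran from 39.4 to 1306, with the highest library in OT-1 early. Dendritic cell markers summed to 137 to 275 in TG6 and 95.4 to 103 in OT-1 at mature CD8SP. At early, 4 of 6 dendritic cell markers and 3 of 5 myeloid markers tested (10 listed) were called higher in OT-1 than in TG6, with summed levels of 84.2 to 198 against 26.7 to 62.9 and 213 to 306 against 255 to 351; 1 of the 5 was called lower, and the part of such cells in the differences below was not tested. TG6 mature CD8SP replicate 3 stood apart: its Rag1 count was 5265 against 696 and 619.9 in replicates 1 and 2, its Cd4 count 461 against 129 and 77.1, and 26 of the 102 carriers with a TG6 mature mean of at least 100 were over 1.5 times above or below both other libraries in it, against 1 each for replicates 1 and 2. The OT-1 against TG6 count at mature CD8SP, the count for its change from early, and several values of named carriers are given below with and without it. Without it, F5 against TG6 at mature CD8SP called 21 carriers in place of 15, beside 8.62% of all symbols in place of 6.64%. The TG6 step from late to mature CD8SP called 29 carriers in place of 40, beside 17.1% of all symbols in place of 22.3%. In such bulk libraries, fewer cells of a type and less RNA per cell cannot be told apart.

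Sorted into broad substrate classes, 35 carriers belong with amino acids and peptides, 30 with sodium, potassium, chloride, protons or bicarbonate, 25 nucleotide sugars, 16 vitamins, choline, creatine, taurine or heme, 16 sugars, 15 lipids, bile acids or organic ions, 13 calcium, magnesium, iron, copper or phosphate, 11 mono- and dicarboxylates, 9 vesicular, lysosomal or neurotransmitter substrates and 6 nucleosides. Another 6 symbols are named after a carrier without being one, and Slc5a4b was left unclassed. The classes are approximate and were assigned by hand, and Slc43a3, a purine nucleobase carrier, counts here with the amino acid carriers, and Slc2a9, a urate carrier, with the sugar carriers. Per kilobase of merged exons, the highest level was that of Slc9a3r1, a scaffold protein for membrane carriers and one of the 6, with a mean normalized count per kilobase of 2041. The highest true carriers on that scale were the choline transporter-like Slc44a2 (1359.8), the amino acid carrier family member Slc38a6 (1101), the sodium-coupled neutral amino acid carrier Slc38a2 (910.5) and the sodium-coupled phosphate carrier Slc20a1 (769). Ferroportin (Slc40a1), the iron exporter, was the lowest at 0.372.

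Together the carriers took under 1% of each library. At early, carriers made up on average 0.853% of the TG6 total (SD 0.0432, n = 3), 0.755% of the F5 total (SD 0.0118, n = 3) and 0.681% of the OT-1 total (SD 0.0162, n = 3), and the 3 groups did not overlap. At late they made up 0.861% (SD 0.0192, n = 2) of TG6, 0.822% (SD 0.0175, n = 3) of F5 and 0.703% (SD 0.00689, n = 3) of OT-1. At mature CD8SP, TG6 ran from 0.628% to 0.776% and F5 from 0.723% to 0.791%, which overlap, while OT-1 lay between 0.619% and 0.624%, under both. Between 2 groups of 3 libraries the smallest two-sided exact permutation p is 0.10, and these shares are given as a description, with no test.

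Differences were tested with limma on log2(normalized count + 1) over 16372 symbols, and a carrier is called when its Benjamini-Hochberg adjusted p is under 0.05. OT-1 against TG6, the comparison between the ends of the self-reactivity scale, called 56 carriers, 28 higher and 28 lower, against 15.4% and 12.4% of all symbols at early. It called 25 carriers, 11 higher and 14 lower, against 9.34% and 6.21% of all symbols at late and 20 carriers, 10 higher and 10 lower, against 4.67% and 5.08% of all symbols at mature CD8SP. As shares of the 183 carriers the totals were 30.6%, 13.7% and 10.9%, against 27.8%, 15.5% and 9.74% of all symbols. OT-1 against F5 called 39 carriers, 22 higher and 17 lower, against 7.81% and 4.88% of all symbols at early, 48 carriers, 26 higher and 22 lower, against 13.6% and 10.4% of all symbols at late and 51 carriers, 25 higher and 26 lower, against 13.3% and 10.1% of all symbols at mature CD8SP. The early share, 21.3%, was the one furthest above the background, at 12.7% of all symbols. With 1 library left out, 23 to 35 carriers were called in this comparison (12.6% to 19.1%), beside 7.83% to 11.6% of all symbols. In the same comparison, 3 of 6 dendritic cell markers were called higher in OT-1, with summed levels of 84.2 to 198 against 37.3 to 54.2, 2 of 5 myeloid markers higher and 1 lower, and 2 of 6 B cell markers lower, and their part in the early differences was not tested. At late, 3 of 5 myeloid and 2 of 6 dendritic cell markers were called higher in OT-1 than in F5. Of 6 B cell markers, 1 was called higher and 1 lower there. The part of these markers in the late differences was not tested either. F5 against TG6 called 18 carriers, 7 higher and 11 lower, against 3.12% and 3.35% of all symbols at early, 9 carriers, 1 higher and 8 lower, against 1.75% and 3.23% of all symbols at late and 15 carriers, 5 higher and 10 lower, against 2.14% and 4.5% of all symbols at mature CD8SP. The mature count of OT-1 against TG6 was unstable. With the 2 mature groups alone in the fit it was 1, and 1 with the replicate number as a block, with no share of all symbols given for either fit. Without TG6 mature CD8SP replicate 3, the comparison called 47 carriers, 17 higher and 30 lower, while the share of all symbols called moved from 9.74% to 27.2% (15% higher and 12.2% lower).

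The balance of directions depended on the scaling. With every library scaled to the same total, the calls for OT-1 against TG6 split into 23 higher and 36 lower at early, 7 and 25 at late and 5 and 18 at mature CD8SP, and those for OT-1 against F5 into 19 and 23 at early and 16 and 39 at mature CD8SP. Quantile normalization gave 9 higher and 18 lower for OT-1 against TG6 at late, 20 and 27 for OT-1 against F5 at late and 18 and 34 at mature CD8SP. For F5 against TG6 the splits were 10 calls at late with equal totals, all lower, 2 and 7 at late with quantile normalization, and 8 and 8 at mature CD8SP with either. Scaling to equal totals also moved the median log2 difference of all symbols in OT-1 against TG6, by -0.107 at early, -0.130 at late and -0.0877 at mature CD8SP. No share of all symbols is given beside these splits, so a tilt in them is not read as a trait of the carriers. The carriers called in either direction are therefore described singly below, and no direction is given for the family.

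**Figure D1:**
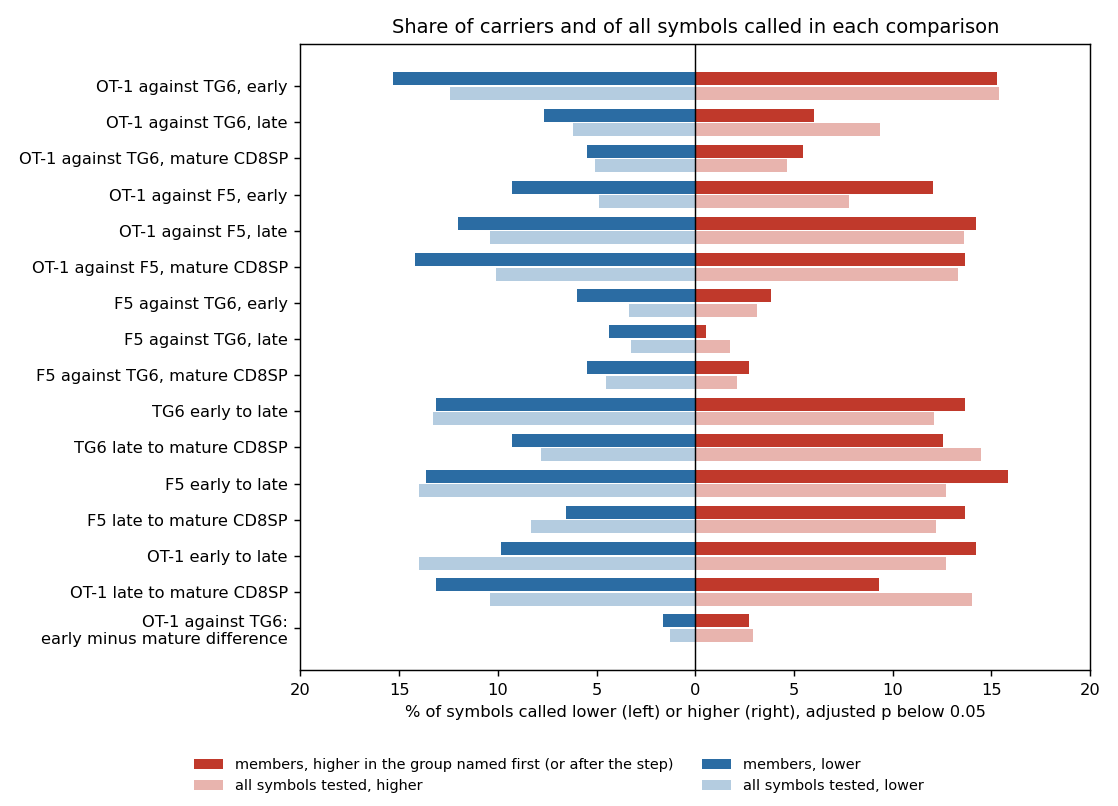
Bars give the percentage of the 183 carriers (dark) and of all 16372 symbols tested (pale) called higher (right of 0) or lower (left of 0) in each of 16 comparisons, at a limma adjusted p under 0.05. The dark and pale bars are of similar length in most comparisons, and the dark bars exceed the pale ones for OT-1 against F5 at early.

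Amino acid and peptide carriers held 7 called higher and 6 called lower of 35 in OT-1 against TG6 at early, 4 and 2 at late and 5 and 2 at mature CD8SP. Against F5 the same class gave 5 higher and 4 lower at early, 10 and 2 at late and 11 and 5 at mature CD8SP. The 30 carriers of monovalent ions gave 5 higher and 5 lower in OT-1 against TG6 at early, 1 and 3 at late and 1 at mature CD8SP, which was lower, and 6 and 3 at early, 4 and 5 at late and 2 and 8 at mature CD8SP in OT-1 against F5. Of the 25 carriers placed with nucleotide sugars, 4 were higher and 3 lower at early, and 2, both higher, at late in OT-1 against TG6. The 16 sugar carriers gave 2 and 2, 1 and 1 at early and late, and 1, lower, at mature CD8SP. For all symbols the shares called higher and lower in OT-1 against TG6 were 15.4% and 12.4% at early, 9.34% and 6.21% at late and 4.67% and 5.08% at mature CD8SP, and against F5 7.81% and 4.88%, 13.6% and 10.4%, and 13.3% and 10.1%. Class medians of the log2 difference between OT-1 and TG6 at early lay between -0.442 (nucleosides) and 0.114 (amino acids and peptides), leaving out the unclassed Slc5a4b at 0.547.

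**Figure D2:**
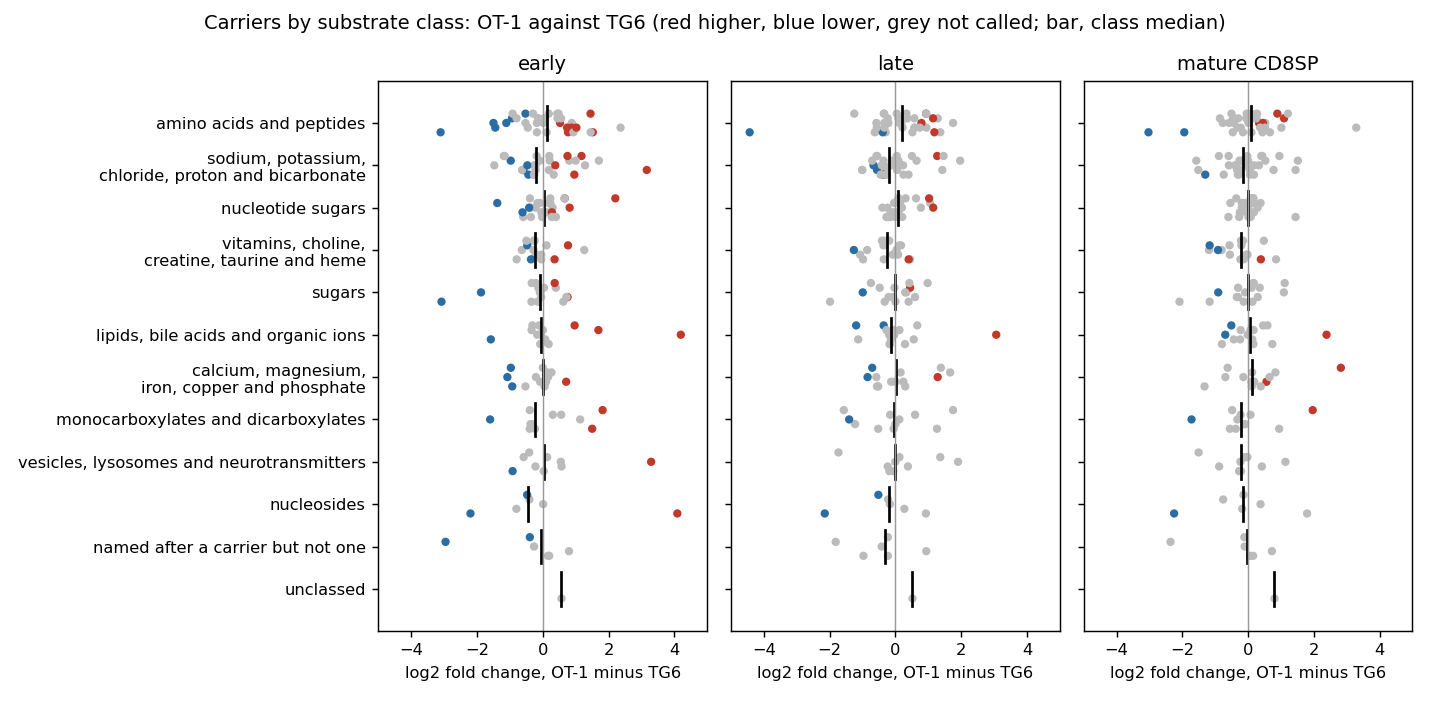
Each point is 1 carrier, placed by its log2 difference between OT-1 and TG6 (x axis) and its substrate class (y axis) at early, late and mature CD8SP; red points were called higher in OT-1, blue points lower, grey points were not called, and black bars are class medians. At early, the larger classes hold both red and blue points, whereas at late and mature CD8SP some classes hold points of 1 colour only or none that were called.

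Slc6a19 (chr13:73679745-73704865, minus strand), the sodium-coupled neutral amino acid carrier B0AT1, best known from gut and kidney epithelium, had the largest called decrease in OT-1 against TG6 at every stage among carriers with a TG6 mean of at least 100 and no overlap. At early its normalized counts were 554, 732 and 1169.8 in TG6, 273, 305 and 289 in F5 and 86.2, 87.1 and 95.5 in OT-1. The 3 lines stood in the order TG6, F5, OT-1 without overlap. At late the counts were 974 and 1364, then 662, 764 and 695, then 63.1, 57.5 and 39.5, again in that order without overlap. At mature CD8SP they were 1139.5, 1054 and 299 in TG6, 624, 489 and 490.3 in F5 and 109, 111 and 53 in OT-1, where TG6 replicate 3 fell below the F5 libraries and every OT-1 library stayed below both other lines. The log2 difference between OT-1 and TG6 was -3.11 (SE 0.37, adjusted p = 1.72e-06) at early, -4.43 (SE 0.41, adjusted p = 1.32e-07) at late and -3.03 (SE 0.37, adjusted p = 8.03e-06) at mature CD8SP, and -3.65 there without TG6 replicate 3. With the 2 mature groups alone in the fit, the mature call was lost (adjusted p = 0.0645). F5 was lower than TG6 at early, with a log2 difference of -1.43 (SE 0.37, adjusted p = 0.0207), a call lost without TG6 early replicate 2 or 3 or F5 early replicate 1, 2 or 3 (-1.68 to -1.14 with 1 library left out, adjusted p at most 0.128). The antisense transcript Slc6a19os overlaps the gene span on the other strand with no exon in common. It had means of 29.9, 10.6 and 3.82 at early in TG6, F5 and OT-1.

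Slc28a2 (chr2:122426477-122461137, plus strand), a sodium-coupled concentrative nucleoside carrier that prefers purines, set OT-1 apart from both other lines. The early counts were 3378, 3493 and 2698 in TG6, 3419, 3947 and 3366 in F5 and 740.1, 669 and 659.8 in OT-1. Late counts were 4199 and 3444, 4179, 4832 and 4217 and 839, 975 and 768 in the same order of lines. TG6 and F5 overlapped at these stages, whereas OT-1 lay far below. At mature CD8SP the counts were 5224, 5178 and 1433 in TG6, 6679, 5963 and 5668 in F5 and 666, 795 and 679 in OT-1, with TG6 replicate 3 between the others of its group and OT-1. OT-1 was lower than TG6, with log2 differences of -2.20 (SE 0.29, adjusted p = 7.26e-06), -2.15 (SE 0.33, adjusted p = 7.08e-05) and -2.25 (SE 0.29, adjusted p = 1.89e-05) at the 3 stages (-2.87 at mature CD8SP without TG6 replicate 3, and adjusted p = 0.102 with the 2 mature groups alone in the fit), and lower than F5, with -2.37, -2.36 and -3.10, all called. No step between stages reached an adjusted p under 0.05 for Slc28a2.

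Slc37a2 (chr9:37227585-37255738, minus strand), a glucose-6-phosphate and phosphate exchanger of the endoplasmic reticulum, was lower in OT-1 at each stage and fell in every line from early to late. Early counts were 1215, 1299.8 and 1529 in TG6, 782, 812 and 944 in F5 and 356, 325 and 417 in OT-1, with no overlap. Late counts were 229.8 and 238 in TG6, 302, 376 and 383 in F5 and 105, 119.6 and 127 in OT-1, so that F5 had become the highest line. At mature CD8SP the means were 156, 275 and 83.1. The log2 difference of OT-1 against TG6 was -1.88 (SE 0.15, adjusted p = 4.37e-09) at early, -0.99 (SE 0.16, adjusted p = 0.000189) at late and -0.91 (SE 0.15, adjusted p = 0.00028) at mature CD8SP (adjusted p = 0.116 with the 2 mature groups alone in the fit), and F5 against TG6 turned from -0.67 at early to 0.59 at late and 0.82 at mature CD8SP, each called. The early call was lost without TG6 early replicate 3 (-0.75 to -0.58 with 1 library left out, adjusted p at most 0.0506), and the late call lost without TG6 late replicate 1 or 2 or F5 late replicate 2 or 3 (0.52 to 0.70 with 1 library left out, adjusted p at most 0.251). With only their own 2 groups fitted, the late and mature calls of F5 against TG6 were lost (adjusted p = 0.2 and 0.0874), as they were with the replicate number as a block (adjusted p = 0.498 and 0.364). An antisense transcript, Gm48081, shares exon sequence with Slc37a2, and reads of the pair cannot be told apart where strand was not used.

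Slc16a5 (chr11:115462474-115474398, plus strand), MCT6 of the monocarboxylate carrier family, had group means in the order TG6, F5, OT-1 at each stage. Its early counts were 3880.4, 4395 and 4903 in TG6, 2563, 2220.2 and 2336 in F5 and 1425, 1122 and 1866 in OT-1, and its mature counts 2226, 2032 and 1263, 981, 1159.8 and 1552 and 517, 371 and 829. The early groups did not overlap, and at mature CD8SP TG6 replicate 3 lay inside the F5 range. OT-1 against TG6 gave log2 differences of -1.60 (SE 0.28, adjusted p = 0.000172) at early, -1.41 (SE 0.31, adjusted p = 0.003) at late and -1.72 (SE 0.28, adjusted p = 0.000262) at mature CD8SP, or -1.97 there without TG6 replicate 3, and the mature call was lost with the 2 mature groups alone in the fit (adjusted p = 0.0732). Its exons overlap those of the antisense transcript Gm11695.

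In the other direction, Slc16a10 (chr10:40033532-40142258, minus strand), a facilitative carrier of aromatic amino acids, was highest in OT-1 at each stage. Early counts were 496, 497 and 405 in TG6, 949.9, 736 and 636 in F5 and 1415, 1285 and 1129.9 in OT-1, and late counts were 1072 and 1188, 1574, 1511 and 1431 and 2164, 2041 and 2265. The lines stood in the reverse order, OT-1 above F5 above TG6, without overlap. At mature CD8SP OT-1 (1420.4, 1336 and 1647) stayed above TG6 (795, 779 and 793) and F5 (743, 966 and 785), which overlapped. The log2 difference of OT-1 against TG6 was 1.45 (SE 0.13, adjusted p = 3.67e-08) at early, 0.93 (SE 0.15, adjusted p = 0.000107) at late and 0.89 (SE 0.13, adjusted p = 9.46e-05) at mature CD8SP. In every line Slc16a10 rose from early to late, by 1.28 in TG6, 0.98 in F5 and 0.76 in OT-1 on the log2 scale, and then fell to mature CD8SP, with log2 changes of -0.52, -0.86 and -0.56, the call in TG6 lost without TG6 late replicate 2 (-0.59 to -0.44 with 1 library left out, adjusted p at most 0.145) and with its 2 groups alone in the fit (adjusted p = 0.0684).

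Slc22a3 (chr17:12418960-12507704, minus strand), an organic cation carrier, had early counts of 20.8, 5.96 and 7.74 in TG6, 34.1, 60 and 42.7 in F5 and 218, 159 and 234 in OT-1. Late counts were 2.94 and 5.9, 2.04, 4.02 and 0 and 56.9, 41.9 and 32.4, and mature CD8SP counts were 21.2, 18.3 and 114, 45.5, 90.7 and 48.2 and 194, 134 and 268. OT-1 lay above both other lines at every stage without overlap, and TG6 mature replicate 3 was the highest TG6 library. OT-1 against TG6 gave log2 differences of 4.20 (SE 0.60, adjusted p = 2.05e-05), 3.07 (SE 0.68, adjusted p = 0.00311) and 2.39 (SE 0.60, adjusted p = 0.0145) from early to mature CD8SP, and 3.21 at mature CD8SP without TG6 replicate 3. The late call was lost without TG6 late replicate 1 (2.66 to 3.47 with 1 library left out, adjusted p at most 0.0662), and the mature call lost without TG6 mature CD8SP replicate 1 or 2 or OT-1 mature CD8SP replicate 3 (1.92 to 3.21 with 1 library left out, adjusted p at most 0.109) and with the 2 mature groups alone in the fit (adjusted p = 0.19). The drop from early to late was called in F5 (-4.19) and OT-1 (-2.21) but not in TG6 (-1.08, adjusted p = 0.283), while a rise from late to mature CD8SP was called in TG6 (2.82, lost without TG6 late replicate 1 (1.99 to 3.28 with 1 library left out, adjusted p at most 0.0729)), F5 (4.58) and OT-1 (2.14, lost without OT-1 mature CD8SP replicate 3 (1.89 to 2.39 with 1 library left out, adjusted p at most 0.0585)). Plg, on the opposite strand, shares exon sequence with Slc22a3.

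Slc15a1 (chr14:121459621-121505252, minus strand), the proton-coupled peptide carrier PEPT1 of the gut, changed its order with stage. Early counts were 66.3, 79.5 and 46.5 in TG6, 45.8, 48.4 and 33 in F5 and 173, 183 and 189 in OT-1. At late they were 1081 and 790.3 in TG6 and 603, 648 and 544 in OT-1, but 52.1, 96.4 and 86.6 in F5. At mature CD8SP they were 1323, 997 and 307 in TG6, 37.4, 26.5 and 46.1 in F5 and 186, 153 and 247 in OT-1. By group means OT-1 was thus the highest line at early, TG6 the highest from late onward, and F5 the lowest at each stage, with F5 and TG6 overlapping at early. The rise from early to late was 3.86 (SE 0.42, adjusted p = 3.89e-07) on the log2 scale in TG6 and 1.71 (SE 0.37, adjusted p = 0.00154) in OT-1, and was not called in F5 (0.84, adjusted p = 0.101). OT-1 against TG6 turned from 1.52 (SE 0.37, adjusted p = 0.00417) at early to -1.94 (SE 0.37, adjusted p = 0.00156) at mature CD8SP (-2.57 without TG6 replicate 3, and adjusted p = 0.163 with the 2 mature groups alone in the fit), and the difference between these was 3.46 (SE 0.53, adjusted p = 0.000281), or 4.10 without TG6 mature replicate 3.

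**Figure D3:**
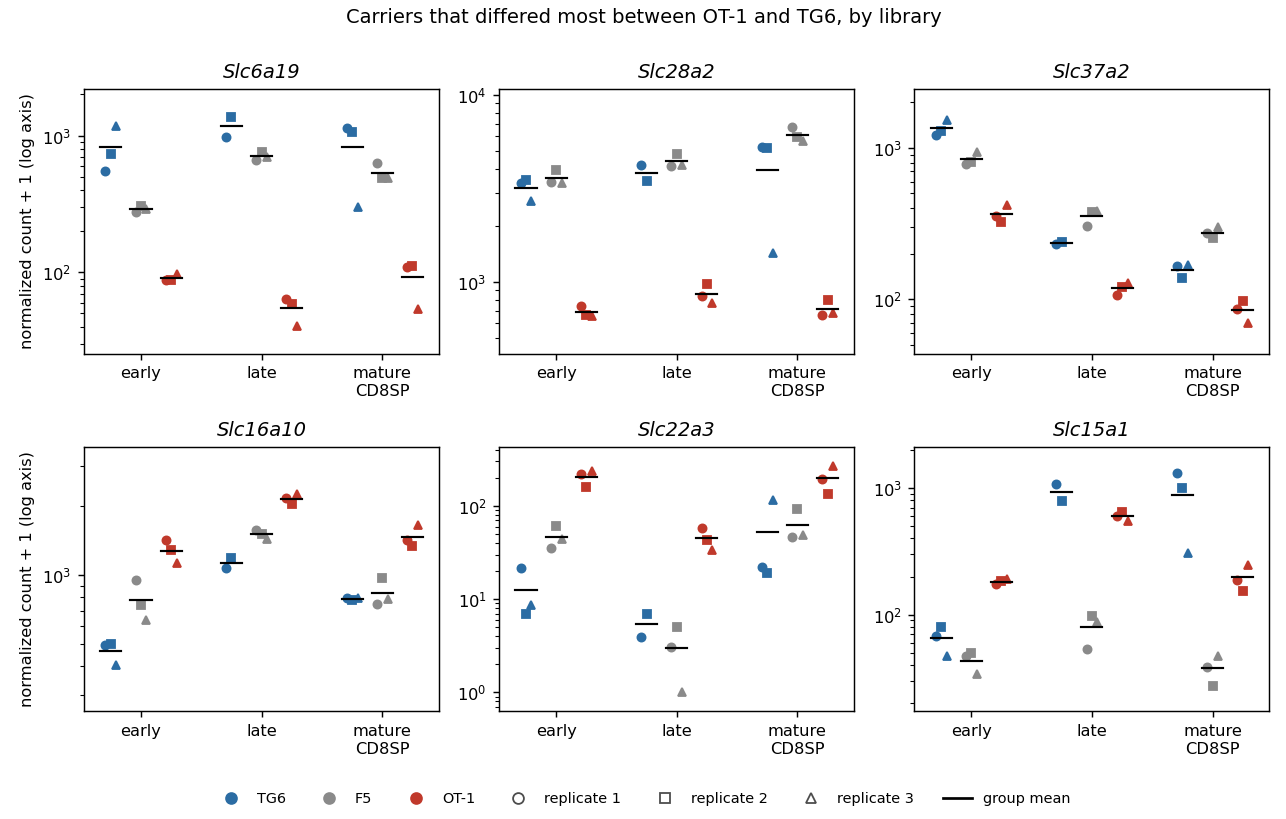
Normalized count + 1 (log axis) of 6 carriers in each library, by stage (x axis) and line (blue TG6, grey F5, red OT-1); marker shapes are replicate numbers and black bars group means. Slc6a19, Slc28a2 and Slc37a2 are lowest in OT-1 at each stage, Slc16a10 and Slc22a3 highest, and Slc15a1 has its lowest group means in F5 throughout.

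The promoters of 3 carriers that were lower and of 1 that was higher in OT-1 at every stage are shown, since their difference between these lines was called at all 3 stages, although for the 3 lower ones the mature CD8SP call was lost with those 2 groups alone in the fit. Each is the RefSeq window of 300 bases on GRCm38.p6, 250 before and 50 after the annotated start, read 5′ to 3′ on the gene's strand. Such windows were found for 136 of the 183 carriers. Capitals mark matches, on either strand, to 6 short motifs: AGGTCA (a ROR receptor site), CAGCTG and CACCTG (E-boxes), CACGTG (the Myc-type E-box), GGGCGG (the GC box of Sp and Klf factors) and TGATGNAA (the Atf4-type amino acid response element).

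Slc6a19 (chr13:73692587-73692886, minus strand): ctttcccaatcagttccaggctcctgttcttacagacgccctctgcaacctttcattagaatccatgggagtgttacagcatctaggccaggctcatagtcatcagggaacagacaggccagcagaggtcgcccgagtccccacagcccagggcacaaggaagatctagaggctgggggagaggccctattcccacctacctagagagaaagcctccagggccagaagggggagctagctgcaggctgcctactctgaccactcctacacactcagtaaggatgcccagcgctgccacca
Slc28a2 (chr2:122426185-122426484, plus strand): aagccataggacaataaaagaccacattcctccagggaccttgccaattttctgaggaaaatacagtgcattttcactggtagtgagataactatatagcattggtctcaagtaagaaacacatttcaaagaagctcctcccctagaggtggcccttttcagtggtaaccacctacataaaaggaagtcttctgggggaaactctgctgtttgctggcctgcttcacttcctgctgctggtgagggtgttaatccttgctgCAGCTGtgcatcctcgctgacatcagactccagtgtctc
Slc37a2 (chr9:37255689-37255988, minus strand): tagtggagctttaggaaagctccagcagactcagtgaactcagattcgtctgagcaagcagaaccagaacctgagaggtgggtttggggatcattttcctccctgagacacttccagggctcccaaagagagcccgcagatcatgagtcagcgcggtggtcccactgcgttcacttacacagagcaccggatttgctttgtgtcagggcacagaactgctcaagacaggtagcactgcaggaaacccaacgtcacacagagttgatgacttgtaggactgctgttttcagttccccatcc
Slc16a10 (chr10:40142205-40142504, minus strand): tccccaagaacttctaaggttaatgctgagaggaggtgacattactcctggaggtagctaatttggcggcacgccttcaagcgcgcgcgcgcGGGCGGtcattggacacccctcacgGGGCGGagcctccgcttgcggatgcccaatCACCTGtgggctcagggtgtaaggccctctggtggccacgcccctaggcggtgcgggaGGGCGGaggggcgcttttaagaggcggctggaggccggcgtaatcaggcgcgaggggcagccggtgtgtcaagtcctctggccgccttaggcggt

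No window of Slc6a19 or Slc37a2 held any of the 6 motifs, that of Slc28a2 held 1 CAGCTG, and that of Slc16a10 held 3 GGGCGG and 1 CACCTG. The RefSeq window of Slc6a19 lies inside the longer gene span of the annotation used for positions. Among all 32851 windows of this length, AGGTCA was in 16.3%, CAGCTG in 16.3%, CACCTG in 20.2%, CACGTG in 7.15%, GGGCGG in 35.7% and TGATGNAA in 3.97%. Across the 178 windows of carriers, GGGCGG was in 60.1% and AGGTCA in 16.9%. These matches describe letters in the window and carry no evidence of binding.

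At early, both chains of the CD98 amino acid carrier exceeded their TG6 level in OT-1. Slc3a2, the heavy chain, had counts of 1187, 1314 and 1484 in TG6, 2085, 1746 and 1672 in F5 and 2269, 2919 and 1723 in OT-1 at early, and of 1124 and 1199, 3359, 1528 and 1446 and 2654, 3309 and 2093 at late. OT-1 lay above TG6 at both stages and overlapped F5. OT-1 against TG6 was 0.77 (SE 0.24, adjusted p = 0.0209) at early and 1.18 (SE 0.27, adjusted p = 0.00388) at late on the log2 scale, and at mature CD8SP it was 0.44 (SE 0.24, adjusted p = 0.257), which was not called. The early call was lost without TG6 early replicate 1 or 2 or OT-1 early replicate 1 or 2 (0.58 to 0.96 with 1 library left out, adjusted p at most 0.124). Its light chain Slc7a5 (LAT1), a carrier of large neutral amino acids, had early counts of 614, 439 and 536 in TG6, 587, 561 and 515 in F5 and 1172, 1381 and 748 in OT-1, a log2 difference of 1.02 (SE 0.29, adjusted p = 0.011) between OT-1 and TG6, a call lost without TG6 early replicate 2 or OT-1 early replicate 2 (0.84 to 1.28 with 1 library left out, adjusted p at most 0.0685). OT-1 against F5 gave 1.58 at late and, 0.94 at early (lost without F5 early replicate 1, 2 or 3 or OT-1 early replicate 1 or 2 (0.76 to 1.2 with 1 library left out, adjusted p at most 0.172)) and 1.06 at mature CD8SP (lost without F5 mature CD8SP replicate 3 or OT-1 mature CD8SP replicate 2 (0.93 to 1.18 with 1 library left out, adjusted p at most 0.0603)). From late to mature CD8SP Slc7a5 rose in TG6 by 1.24 (lost without TG6 late replicate 1 or 2 (0.97 to 1.38 with 1 library left out, adjusted p at most 0.0595)), in F5 by 1.53 and in OT-1 by 1.01 (lost without OT-1 late replicate 3 or OT-1 mature CD8SP replicate 2 (0.83 to 1.14 with 1 library left out, adjusted p at most 0.0691)). The light chain Slc7a6 differed between lines at no stage past the threshold, with group means between 1247 and 1589.

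Slc7a11, the cystine-glutamate exchanger that takes up cystine for glutathione, ran the other way. Early counts were 220.4, 241 and 334 in TG6, 302, 349.7 and 379 in F5 and 97.8, 105 and 74.8 in OT-1, with OT-1 under both other lines. The log2 difference was -1.50 (SE 0.34, adjusted p = 0.00217) against TG6 and -1.89 (SE 0.34, adjusted p = 0.000503) against F5. Slc7a11 fell from early to late in TG6 (-1.25, lost without TG6 early replicate 3 or TG6 late replicate 1 or 2 (-1.37 to -1.07 with 1 library left out, adjusted p at most 0.132)) and F5 (-1.85), to late means of 109.7 and 95, next to 89.2 in OT-1.

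The glutamine carriers differed among themselves. Slc38a1, a sodium-coupled glutamine carrier, was higher in OT-1 at every stage. Its early counts were 5776, 5536 and 5509 in TG6, 5805, 5466 and 5199 in F5 and 8386, 7944 and 7852 in OT-1, and OT-1 did not overlap the others. The log2 difference of OT-1 against TG6 was 0.52 (SE 0.11, adjusted p = 0.000858) at early, 0.79 (SE 0.12, adjusted p = 5.89e-05) at late and 0.45 (SE 0.11, adjusted p = 0.00863) at mature CD8SP, the last lost without TG6 mature CD8SP replicate 1 or 2 (0.39 to 0.55 with 1 library left out, adjusted p at most 0.0622) and with the 2 mature groups alone in the fit (adjusted p = 0.145). Slc38a2, a related neutral amino acid carrier, was instead lower in OT-1 at late, with -0.39 (SE 0.10, adjusted p = 0.0127) against TG6, a call lost without TG6 late replicate 1 or 2 or OT-1 late replicate 1 (-0.42 to -0.34 with 1 library left out, adjusted p at most 0.112). It fell from late to mature CD8SP in TG6 (-0.67), F5 (-0.67) and OT-1 (-0.44). Slc1a5 (ASCT2), the sodium-dependent glutamine exchanger, had late means of 2606, 2379 and 2964 in TG6, F5 and OT-1 and mature means of 3600.4, 3699 and 4535, and rose over this step in each line. Its OT-1 against TG6 difference was 0.33 (SE 0.09, adjusted p = 0.0154) at mature CD8SP, a call lost without OT-1 mature CD8SP replicate 3 (0.31 to 0.34 with 1 library left out, adjusted p at most 0.0505) and also lost with equal totals, quantile normalization or the 2 mature groups alone in the fit (adjusted p = 0.125 in the last), and -0.18 (adjusted p = 0.117) at early.

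Of the facilitative glucose carriers, Slc2a3 (GLUT3) had early counts of 625, 654 and 712 in TG6, 442, 418 and 336 in F5 and 954, 1308 and 1119.6 in OT-1. OT-1 was above TG6 and TG6 above F5 without overlap, with log2 differences of 0.75 (SE 0.14, adjusted p = 0.0003) for OT-1 against TG6 and -0.74 (SE 0.14, adjusted p = 0.00128) for F5 against TG6. At mature CD8SP the counts were 1145, 992 and 809, 639, 736 and 647 and 723, 730.0 and 919, and OT-1 against TG6 was -0.31 (SE 0.14, adjusted p = 0.162), not called. The change of the OT-1 against TG6 difference between the stages was 1.06 (SE 0.19, adjusted p = 0.00173). Slc2a1 (GLUT1) had early counts of 351, 439 and 456, 396, 268 and 327 and 696, 788 and 469. It was called higher in OT-1 than in F5 at early (0.96, adjusted p = 0.0115), a call lost without F5 early replicate 2 or OT-1 early replicate 1 or 2 (0.81 to 1.18 with 1 library left out, adjusted p at most 0.0789), while OT-1 against TG6 gave 0.62 (adjusted p = 0.0642).

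The lactate and pyruvate carrier Slc16a1 (MCT1) had early means of 2713, 3046 and 2091 in TG6, F5 and OT-1, and fell to late in F5 (-1.01) and TG6 (-0.77, lost without TG6 early replicate 3 or TG6 late replicate 1 or 2 (-0.82 to -0.70 with 1 library left out, adjusted p at most 0.119)). Differences between lines stayed above the threshold for Slc16a1 at each stage. The lactate exporter Slc16a3 (MCT4) had early counts of 48.3, 16.9 and 34.7 in TG6, 72.5, 24.6 and 70.8 in F5 and 101, 86.8 and 79.2 in OT-1, and was higher in OT-1 against TG6 by 1.5 (SE 0.42, adjusted p = 0.0105), a call lost without TG6 early replicate 2 (1.09 to 1.82 with 1 library left out, adjusted p at most 0.0816).

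Among ion carriers, the inward sodium-potassium-chloride cotransporter Slc12a2 (NKCC1) had early counts of 154, 149 and 118 in TG6, 216, 208 and 191 in F5 and 259, 271 and 288 in OT-1, in rising order without overlap. OT-1 exceeded TG6 by 0.96 (SE 0.13, adjusted p = 6.31e-06) at early and by 0.18 (SE 0.13, adjusted p = 0.393) at mature CD8SP, where it was not called, and the difference between the stages was 0.78 (SE 0.18, adjusted p = 0.0113) (adjusted p = 0.0581 with the 4 groups of this test alone in the fit). The outward potassium-chloride cotransporter Slc12a7 (KCC4) had early means of 3701, 3489 and 4247 and rose to 10495, 10248 and 7039 at late in TG6, F5 and OT-1, log2 changes of 1.5, 1.55 and 0.73. At mature CD8SP its counts were 10843, 10313 and 4568 in TG6, 9917, 7435 and 10865 in F5 and 5579, 5589 and 4796 in OT-1, lower in OT-1 than in F5, with a log2 difference of -0.81 (SE 0.21, adjusted p = 0.00766). The sodium bicarbonate cotransporter Slc4a7 fell from early to late in TG6, with -0.71 (SE 0.19, adjusted p = 0.00874), a call lost without TG6 late replicate 2 (-0.87 to -0.56 with 1 library left out, adjusted p at most 0.14). Slc8b1, the mitochondrial sodium-calcium exchanger, had late counts of 92.9 and 56.7 in TG6 and 217, 156 and 168 in OT-1, a difference of 1.28 (SE 0.26, adjusted p = 0.0016), lost without TG6 late replicate 2 (0.93 to 1.64 with 1 library left out, adjusted p at most 0.0833). Its early to late fall in TG6 (-0.83, adjusted p = 0.0219) was lost with mouse as a block (adjusted p = 0.0529) or with its 2 groups alone in the fit (adjusted p = 0.124) and was lost without TG6 early replicate 2 or TG6 late replicate 2 (-1.18 to -0.48 with 1 library left out, adjusted p at most 0.365).

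The iron carrier Slc11a2 (DMT1) had early counts of 645, 762 and 604 in TG6, 504, 664 and 520.4 in F5 and 1209, 1044 and 1033 in OT-1, and OT-1 lay above both. OT-1 against TG6 was 0.71 (SE 0.16, adjusted p = 0.00173) at early and 0.56 (SE 0.16, adjusted p = 0.0253) at mature CD8SP, the latter lost without TG6 mature CD8SP replicate 1 or OT-1 mature CD8SP replicate 1 or 2 (0.43 to 0.70 with 1 library left out, adjusted p at most 0.144) and also lost with equal totals or with the 2 mature groups alone in the fit (adjusted p = 0.18 in the last). The iron exporter Slc40a1 stayed at or under 26.1 in every library and reached an adjusted p under 0.05 in none of the 16 comparisons. The phosphate carrier Slc20a1 rose from early to late in F5 by 1.07 (SE 0.23, adjusted p = 0.00108), the taurine carrier Slc6a6 in OT-1 by 0.36 (SE 0.12, adjusted p = 0.0275), lost without OT-1 early replicate 1 or 3 or OT-1 late replicate 1 or 2 (0.32 to 0.41 with 1 library left out, adjusted p at most 0.103), and the choline transporter-like Slc44a2 in OT-1 by 0.49 (SE 0.10, adjusted p = 0.00079). Slc26a11, a chloride and sulfate carrier, had mature counts of 193, 147 and 94.5 in TG6, 428, 380.0 and 464 in F5 and 227, 172 and 159 in OT-1, with F5 above the others. OT-1 against TG6 gave 1.18 at early (lost without TG6 early replicate 1 (1.03 to 1.37 with 1 library left out, adjusted p at most 0.0696)) and 1.27 at late (lost without TG6 late replicate 1 or OT-1 late replicate 1, 2 or 3 (0.60 to 1.94 with 1 library left out, adjusted p at most 0.475), and also lost with equal totals or with its 2 groups alone in the fit, where the adjusted p was 0.104). OT-1 against F5 gave -1.20 at mature CD8SP, lost without F5 mature CD8SP replicate 3 or OT-1 mature CD8SP replicate 2 or 3 (-1.35 to -1.09 with 1 library left out, adjusted p at most 0.0671). At late it was called in the other direction, at 1.12, a call lost with its 2 groups alone in the fit (adjusted p = 0.133).

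Maturation was compared stage by stage within each line. From early to late, 25 carriers higher and 24 lower (12.1% and 13.3% of all symbols) were called in TG6, 29 carriers higher and 25 lower (12.7% and 14% of all symbols) in F5 and 26 carriers higher and 18 lower (12.7% and 14% of all symbols) in OT-1. Over this first step, 2 of 6 B cell and 1 of 5 myeloid markers were called lower in TG6 and in F5. Of 6 dendritic cell markers, 1 was called higher in TG6 and 3 lower in OT-1. In each line 1 of 6 erythroid markers was called higher. From late to mature CD8SP, 23 carriers higher and 17 lower (14.5% and 7.79% of all symbols) were called in TG6, 25 carriers higher and 12 lower (12.2% and 8.31% of all symbols) in F5 and 17 carriers higher and 24 lower (14% and 10.4% of all symbols) in OT-1. Over this later step, 3 of 6 dendritic cell markers were called higher in TG6, 3 in F5 and 1 in OT-1, with summed levels of 70.7 to 94.9 at late and 137 to 275 at mature CD8SP in TG6, 37.1 to 46.2 at late and 51.6 to 123 at mature CD8SP in F5 and 41.7 to 60.2 at late and 95.4 to 103 at mature CD8SP in OT-1. Of 6 B cell markers, 2 were called higher in each line and 1 lower in TG6, and the part of these markers in the changes was not tested. With other scalings the TG6 late to mature split was 20 higher and 25 lower (equal totals) or 18 and 30 (quantile), and with quantile normalization it was 21 and 16 in F5 and 13 and 31 in OT-1. These scalings moved the median of all symbols in the TG6 step by -0.109 and -0.101, and no share of all symbols is given beside the splits. Without TG6 late replicate 2, 15 carriers were called in the TG6 step in place of 40, with no share of all symbols given beside it. With only a step's own groups in the fit, late to mature CD8SP called 6 carriers in TG6 and 20 in F5, again with no such share given. Among named carriers called in this step, that fit lost Slc12a2, Slc16a10, Slc19a1, Slc1a5, Slc22a3, Slc26a11, Slc29a1, Slc2a9, Slc37a2, Slc38a1, Slc38a2, Slc43a3, Slc7a5 and Slc9a5 in TG6 and Slc11a2, Slc12a2, Slc15a1, Slc29a1, Slc38a1 and Slc7a5 in F5. In OT-1 it lost Slc11a2, Slc16a5 and Slc37a2. Called in the same direction in all 3 lines were 10 carriers that rose from early to late (5.41% of all symbols did), 11 that fell (7.09%), 11 that rose from late to mature CD8SP (6.56%) and 8 that fell (3.59%). As shares of 183 these are 5.46%, 6.01%, 6.01% and 4.37%, near the background each time.

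Slc29a1, Slc43a3 and Slc9a5 fell to late and rose again at mature CD8SP in all 3 lines. Slc29a1 (chr17:45585200-45599606, minus strand), the equilibrative nucleoside carrier ENT1, had counts of 1895, 1719.8 and 1993 at early, 796 and 673 at late and 1078, 1022 and 2612 at mature CD8SP in TG6. In OT-1 they were 1993, 1939.8 and 1716, then 689, 684 and 585, then 1802, 1981 and 1777, so that late lay below both other stages without overlap. The log2 change from early to late was -1.35 in TG6, -1.63 in F5 and -1.53 in OT-1, and from late to mature CD8SP 0.96 in TG6, 0.87 in F5 and 1.51 in OT-1. Without TG6 mature replicate 3 the rise in TG6 was 0.52 (adjusted p = 0.076), no longer called. That call was lost without TG6 late replicate 1 or 2 or TG6 mature CD8SP replicate 3 (0.52 to 1.2 with 1 library left out, adjusted p at most 0.142), and the rise in F5 was lost without F5 late replicate 3 or F5 mature CD8SP replicate 2 (0.64 to 1.01 with 1 library left out, adjusted p at most 0.115). Slc43a3 (chr2:84936579-84958509, plus strand), a purine nucleobase carrier, had means of 483, 86.6 and 502 over the stages in TG6, 679, 128 and 483 in F5, and 659, 197 and 902 in OT-1. On the log2 scale its change to late was -2.47 in TG6, -2.46 in F5 and -1.77 in OT-1, and to mature CD8SP 2.27 in TG6, 1.92 in F5 and 2.22 in OT-1. The rise in TG6 was 1.68 without replicate 3 (adjusted p = 0.000203). At mature CD8SP, OT-1 against TG6 was 1.09 (SE 0.34, adjusted p = 0.0438), or 1.68 (adjusted p = 6.76e-05) without that library, and the call was lost without TG6 mature CD8SP replicate 1 or 2 or OT-1 mature CD8SP replicate 1, 2 or 3 (0.80 to 1.68 with 1 library left out, adjusted p at most 0.255) and with the 2 mature groups alone in the fit (adjusted p = 0.308). Slc9a5 (chr8:105348843-105369881, plus strand), a sodium-proton exchanger, changed by -1.64 in TG6, -2.20 in F5 and -0.91 in OT-1 and then by 1.65 in TG6, 1.78 in F5 and 1.53 in OT-1, from early means of 165, 255 and 155. Its fall in OT-1 was lost without OT-1 early replicate 2 or OT-1 late replicate 2 or 3 (-1.05 to -0.82 with 1 library left out, adjusted p at most 0.0711), and its rise in TG6 was 1.34 without TG6 mature replicate 3.

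Slc17a9 (chr2:180725263-180742280, plus strand), the vesicular nucleotide carrier that loads ATP into vesicles, rose at both steps in all lines. Its counts in TG6 were 62.4, 70.2 and 33.6 at early, 371 and 317 at late and 988, 1057 and 668 at mature CD8SP, and in OT-1 67.3, 63.1 and 45.8, 437, 333 and 357 and 927, 815 and 742. In all 3 lines every library of a later stage lay above every library of the earlier one. The first step was 2.67 in TG6, 2.12 in F5 and 2.67 in OT-1 on the log2 scale and the second 1.37 in TG6, 1.32 in F5 and 1.14 in OT-1. Between lines, Slc17a9 stayed above the adjusted p threshold at each stage.

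Slc27a1 (chr8:71568882-71587302, plus strand), a fatty acid carrier, peaked at late, with counts of 493, 504 and 489 at early, 999 and 1105 at late and 498, 450.2 and 372 at mature CD8SP in TG6. Its log2 change was 1.08 in TG6, 0.93 in F5 and 0.84 in OT-1 on the way up and -1.26 in TG6, -1.0 in F5 and -1.42 in OT-1 on the way down, and it was lower in OT-1 than in F5 at every stage, with -0.52, -0.60 and -1.02. Slc16a6, of the monocarboxylate family, and Slc35d2, a nucleotide sugar carrier, rose from early to late, by 1.73 in TG6, 1.46 in F5 and 1.27 in OT-1 and by 0.83 in TG6, 1.14 in F5 and 0.79 in OT-1. The Slc35d2 call in TG6 was lost without TG6 late replicate 1 (0.62 to 1.03 with 1 library left out, adjusted p at most 0.155). Slc43a1, a carrier of branched-chain amino acids, fell from early to late, with -2.75 in TG6, -2.07 in F5 and -1.64 in OT-1, as did Slc37a2, with -2.52 in TG6, -1.26 in F5 and -1.63 in OT-1. From late to mature CD8SP the endosomal sodium-proton exchanger Slc9a9 fell, with -1.29 in TG6, -0.93 in F5 and -1.04 in OT-1, and so did the urate carrier Slc2a9, with -0.95 in TG6, -1.04 in F5 and -0.76 in OT-1. Slc19a1, the reduced folate carrier, rose over the same step by 1.09 in TG6, 0.99 in F5 and 0.52 in OT-1, the last lost without OT-1 late replicate 2 or OT-1 mature CD8SP replicate 1 (0.46 to 0.57 with 1 library left out, adjusted p at most 0.057). Its earlier rise in TG6 (0.53, adjusted p = 0.0191) was lost with mouse as a block (adjusted p = 0.0612) or with its 2 groups alone in the fit (adjusted p = 0.197) and was lost without TG6 early replicate 3 or TG6 late replicate 2 (0.23 to 0.84 with 1 library left out, adjusted p at most 0.483).

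**Figure D4:**
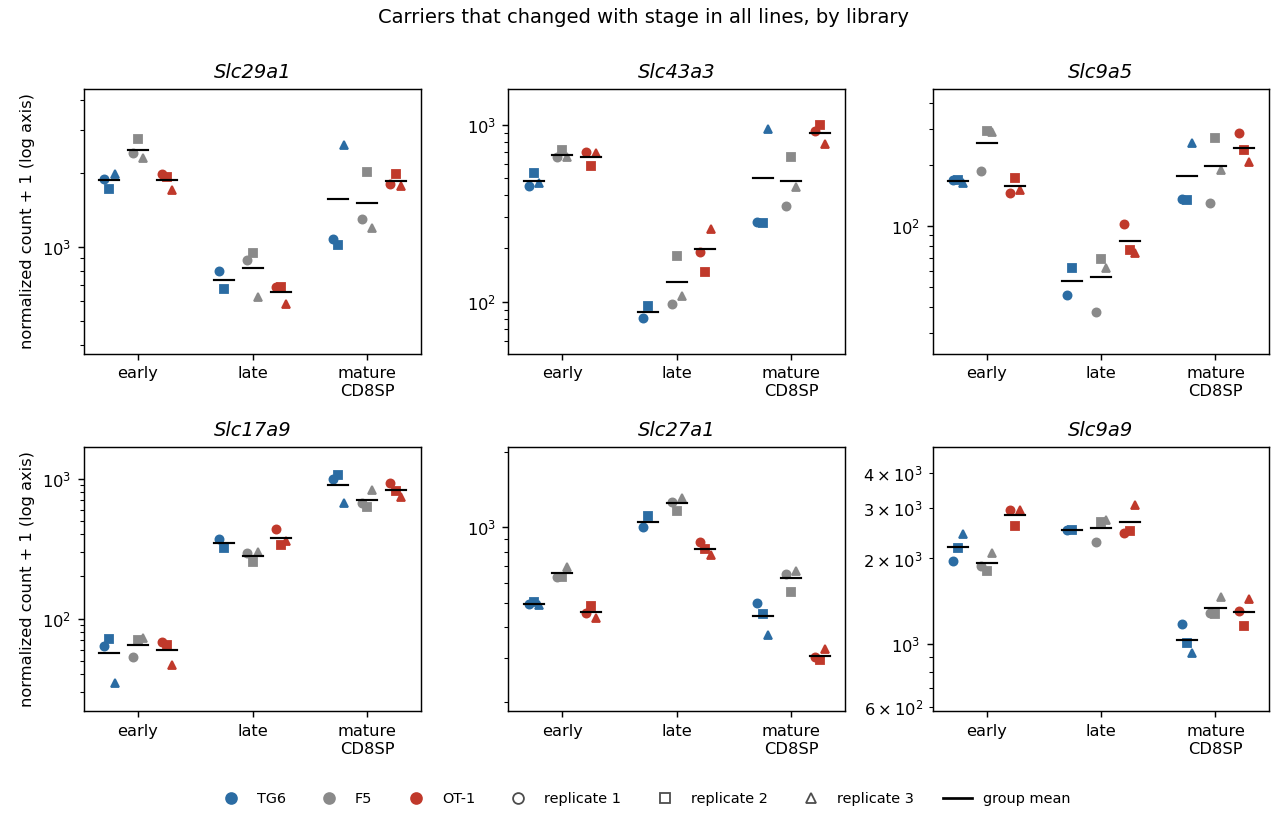
Normalized count + 1 (log axis) of 6 carriers in each library, by stage (x axis) and line (blue TG6, grey F5, red OT-1); marker shapes are replicate numbers and black bars group means. Slc29a1, Slc43a3 and Slc9a5 dip at late, Slc17a9 climbs over both steps, Slc27a1 peaks at late and Slc9a9 is lowest at mature CD8SP, with TG6 mature replicate 3 (blue triangle) above its group for the first 3.

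Whether the OT-1 against TG6 difference itself changed from early to mature CD8SP was tested as an interaction. It was called for 8 carriers, 5 with the larger OT-1 excess at early and 3 with the smaller, against 2.91% and 1.28% of all symbols, and for 18 without TG6 mature replicate 3, where 7.04% of all symbols were called in place of 4.2%. They included Slc15a1, Slc46a3, Slc2a3 and Slc12a2 on the first side and Slc37a2 and Slc1a5 on the other. Of these, Slc46a3 falls outside the rule for named genes and was named after its values were seen. The lysosomal carrier Slc46a3 had means of 118 in OT-1 and 68.4 in TG6 at early and 52.5 and 119.6 at mature CD8SP, an interaction of 1.94 (SE 0.36, adjusted p = 0.00193).

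Genes that work with the carriers were taken from lists, whose counts stand beside 15.4% of all symbols called higher and 12.4% lower in OT-1 against TG6 at early, 9.34% and 6.21% at late, and 4.67% and 5.08% at mature CD8SP. Of 8 chaperones and sodium pump subunits, 3 were called higher and 1 lower in OT-1 against TG6 at early, 1 higher at late and 2 higher at mature CD8SP. Atp1b3, a subunit of the sodium pump that maintains the gradient used by coupled carriers, was higher in OT-1 by 0.86 (SE 0.11, adjusted p = 4.13e-06) at early and 1.08 (SE 0.12, adjusted p = 1.65e-06) at late. Of 7 kinases and adaptors that control the Slc12 cotransporters, 3 were higher at early, 2 at late and 2 at mature CD8SP. Stk39 (SPAK), the kinase that activates Slc12a2, had means of 36.2, 40.7 and 343 at early in TG6, F5 and OT-1, and OT-1 against TG6 was 3.20 (SE 0.30, adjusted p = 5.31e-08). Of 21 regulators of nutrient uptake, 18 passed the filter, with 4 higher and 2 lower at early, 2 higher at late and 2 higher at mature CD8SP. The serine synthesis enzyme Psat1 was higher in OT-1 by 1.52 (SE 0.23, adjusted p = 4.31e-05) at early.

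Slc15a2 (chr16:36750177-36784962, minus strand), the high-affinity peptide carrier PEPT2, varied widely between replicates of 1 group and had an adjusted p above 0.05 in each of the 16 comparisons. With mouse as a block, its steps also stayed above it, with -0.46 (SE 0.61, adjusted p = 0.647) for early to late in TG6 and -0.73 (SE 0.52, adjusted p = 0.303) for late to mature CD8SP in OT-1. It falls outside the rule for named genes and was named after its values were seen. In TG6, replicates 1, 2 and 3 had counts of 60.6, 3244 and 1.34 at early and 3.37, 1440.5 and 2.24 at mature CD8SP, and replicates 1 and 2 had 23.5 and 2166 at late. In F5 the counts of replicates 1, 2 and 3 were 2989, 25.5 and 827 at early, 3399.8, 37.2 and 759 at late and 2265, 66.5 and 648 at mature CD8SP. In OT-1 they were 229, 751 and 369, 204, 1023 and 413 and 167, 404 and 279.5. Within each line the replicates stood in the same order at every stage where they were present. The labels number the biological replicates of each line and do not name the mice, and a number within a line is read here as 1 mouse sorted into 3 populations. For TG6 this reading is less certain. The deviations of same-numbered libraries correlated above 0.1 in 3 of 7 pairs in TG6, in 9 of 9 in F5 and in 8 of 9 in OT-1. Slc38a6, the amino acid carrier with the third level per kilobase, had counts in TG6 of 11465, 16061 and 6891 at early and 7064, 9038 and 3383 at mature CD8SP, and in F5 of 11826, 7201 and 9204 and 10139.5, 5979.7 and 6382, also in 1 order of replicates at both stages. Its steps were not called without the block. With mouse as a block it fell from late to mature CD8SP in TG6, with -0.55 (SE 0.11, adjusted p = 0.00141), in F5, with -0.44 (SE 0.09, adjusted p = 0.00183), and in OT-1, with -0.68 (SE 0.09, adjusted p = 4.97e-05), and from early to late in TG6, with -0.30 (SE 0.11, adjusted p = 0.0462).

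**Figure D5:**
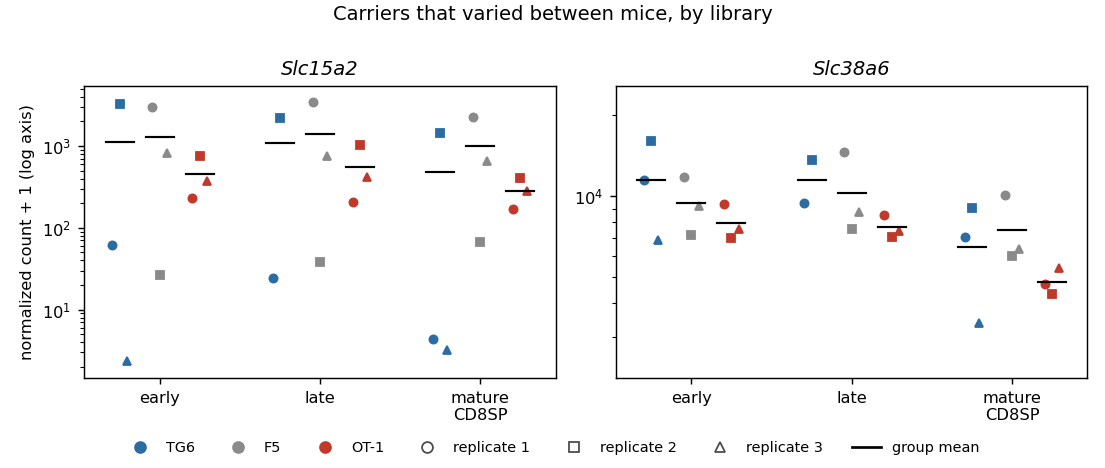
Normalized count + 1 (log axis) of Slc15a2 and Slc38a6 in each library, by stage (x axis) and line (blue TG6, grey F5, red OT-1); marker shapes are replicate numbers and black bars group means. For Slc15a2 the square is the top TG6 library and the circle the top F5 library at every stage.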

How the data were processed

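RNA of sorted thymocytes from 26 libraries in 9 groups was sequenced by the submitters. According to the submitters' processing notes, reads were trimmed with Trimmomatic 0.32, aligned with Bowtie2 2.3.2 to mm10, quantified with RSEM 1.2.31 and normalized with DESeq2 (version not given in the sources used here). The deposited table holds the resulting normalized expression signal per gene symbol, which is an estimated count divided by a size factor and not a whole number; the authors' counting does not state strand. Its depth before scaling is unknown, so no counting intervals are given. Values were tested with limma 3.58.1 in R 4.3.3 on log2(value + 1), with a prior variance that follows mean expression and 1 fit of 9 group means, so that the lone pair of TG6 late is assumed to vary like the other groups. That fit takes the 26 libraries as independent and does not pair those read below as 1 mouse. Its standard errors and adjusted p-values rest on this. The fit covered the 16372 symbols that reached 10 in 2 or more libraries, and p-values were adjusted by Benjamini-Hochberg over all of them. Fold changes on this scale understate the change of low genes. A replicate number within a line is read as 1 mouse, from the number of mice in the series' design text and the numbered biological replicates, although mice are not named. Between the stages of a line, the deviations of same-numbered libraries had median correlations of 0.349 in F5, 0.273 in OT-1 and 0.0947 in TG6, and in TG6 3 of 7 pairs exceeded 0.1. Between lines the number is only a number. Differences between lines thus compare separate mice. The carriers and all lists were chosen with earlier results of these data known. Named genes are a panel of 24 carriers, for each stage the 3 largest called OT-1 against TG6 differences in either direction, the 4 largest per direction and step called in all 3 lines (with a higher-group mean of at least 100 and, between lines, no overlap) and the 5 highest levels per kilobase. Positions and exon lengths are from GENCODE vM21 (GRCm38, the same build as mm10) and promoters from RefSeq; 47 of 183 carriers share exon sequence with another annotated gene. Alternatives were other pseudocounts, filters, scalings, prior variances, only the groups compared, a replicate block and leaving out each library. Values of some genes that the lists and the naming rule cover are not reported here.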

Additional observations from a re-analysis of the deposited data

Results flagged for a closer look

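For 5 named carriers the difference between OT-1 and TG6 changed from early to mature CD8SP, by the limma interaction of line and stage with Benjamini-Hochberg adjustment over all symbols. On the log2 scale, the OT-1 minus TG6 difference at early exceeded that at mature CD8SP by 3.46 (adjusted p = 0.000281), and 4.10 without TG6 mature CD8SP replicate 3 for Slc15a1, a peptide carrier that was higher in OT-1 at early and higher in TG6 at mature CD8SP in 3 of 3 libraries each. For Slc2a3, a glucose carrier, the interaction was 1.06 (adjusted p = 0.00173), and 1.19 without TG6 mature CD8SP replicate 3. For Slc12a2, a sodium-potassium-chloride cotransporter, it was 0.78 (adjusted p = 0.0113), and 0.75 without TG6 mature CD8SP replicate 3. A fit of only those 4 groups lost this call. For Slc37a2, lower in OT-1 at both stages, it was -0.97 (adjusted p = 0.00657), and -1.02 without TG6 mature CD8SP replicate 3, so the deficit was larger at early. For Slc1a5, a glutamine exchanger, it was -0.52 (adjusted p = 0.0139), and -0.49 without TG6 mature CD8SP replicate 3.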

How the results depend on the processing

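Between lines, libraries share only a replicate number. With the number as a replicate block, OT-1 against TG6 called 15 carriers at late and 1 at mature CD8SP, OT-1 against F5 called 17 at late and 14 at mature CD8SP, F5 against TG6 called 6 at early, 0 at late and 0 at mature CD8SP (20 carriers at each of the last pair had an unadjusted p under 0.05, and of all symbols 0 were called at late and 149 at mature CD8SP), and the interaction called 14. Within lines, where the number is read as a mouse, the block moved the early to late counts to 57 in TG6, 66 in F5 and 63 in OT-1 and the late to mature counts to 44, 54 and 59, all within 1.5 times, and kept 120 of 122 called step and interaction values of named carriers, with both losses given above. When each fit held the compared groups alone, OT-1 against TG6 at mature CD8SP called 1 carrier, OT-1 against F5 at mature CD8SP 32, F5 against TG6 2 at late and 3 at mature CD8SP, the TG6 and F5 steps from late to mature CD8SP 6 and 20, and that step in all 3 lines 3 higher and 2 lower. With 1 library left out, counts ran from 14 to 25 for OT-1 against TG6 at late and from 9 to 47 at mature CD8SP (47 without TG6 mature CD8SP replicate 3), from 23 to 35 for OT-1 against F5 at early, 30 to 47 at late and 30 to 46 at mature CD8SP, from 8 to 12 for F5 against TG6 at early and 3 to 9 at late, from 15 (without TG6 late replicate 2) to 42 for the TG6 step from late to mature CD8SP, from 6 to 18 for the interaction, and from 4 (without TG6 late replicate 2) to 9 for carriers lower in all 3 lines over that step. Apart from the shares stated here and above, no share of all symbols is given for these fits. The counts therefore do not show whether carriers moved more than other symbols. The cause of these changes was not tested. Scaling to equal totals moved the median of all symbols by -0.107 (early) and -0.130 (late) in OT-1 against TG6, by -0.134 in OT-1 against F5 at mature CD8SP and by -0.109 in the TG6 late to mature step, which quantile normalization moved by -0.101. Of 237 called values of named carriers, none reversed under any alternative run, and 120 kept their call under every one.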
